A study of Mus musculus with 20 samples.

Results

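A set of 10 genes of the choroid plexus epithelium was followed through bulk RNA sequencing of single mouse hippocampi. They were Ttr, Enpp2, F5, Slc4a5, Aqp1, Clic6, Folr1, Kl, Prlr and Otx2, and they are 10 of the 49671 genes in the deposited count tables. The list was chosen by name, with earlier results of these data known. All 10 were counted in all 20 libraries and passed the filter on low counts, with at least 4 counts in every library. The series concerns inflammation of the nervous system under immune checkpoint inhibition, and each library came from 1 fresh frozen hippocampus of 1 male wild-type mouse aged 10 to 12 weeks.

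There were 4 groups of 5 mice. The control mice had no tumour and received isotype-matched antibody intraperitoneally. The ICI mice had no tumour and received the immune checkpoint inhibitors anti-CTLA-4, as 3 weekly doses of 1 mg, and anti-PD-1, as 2 weekly doses of 200 µg. The melanoma mice carried D4M-3A.UV2 tumours, a syngeneic mouse melanoma line, after intradermal injection of 500000 cells on each side and 1 week of engraftment, and received isotype antibody. The melanoma + ICI mice carried the same tumours and received both inhibitors for 3 weeks. Harvest followed the last injection by 72 hours in all groups. The tumour groups rest on 1 cell line, and all mice were male.

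The choroid plexus is a fringe of epithelium on a vascular core that hangs into the brain ventricles and secretes cerebrospinal fluid. In the lateral ventricle it is attached along the fimbria, so it lies directly against the hippocampus. Its epithelial cells make transthyretin and other secreted proteins, move ions, water and folate into the fluid, and carry receptors for hormones. In tissue of mixed cells, fewer cells of a type and less RNA per cell cannot be told apart.

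Library totals ranged from 21990624 to 25735149 counts. Levels are given as CPM, counts per 1000000 of the library size scaled by TMM, edgeR's method for making libraries comparable. Markers of hippocampal neurons were present in every library, with a summed level of 10 genes (Prox1, Wfs1, Neurod6 and others) between 359.5 and 1705 CPM. Summed striatal markers lay between 129.4 and 1296 CPM, with the highest value in the melanoma group. The correlation of their mean log2 CPM with Ttr over the 20 libraries was near 0 (Pearson r = -0.0532, permutation p = 0.825, and Spearman rho = -0.159, p = 0.502).

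Upstream sequence is shown for 3 members: Otx2, a homeobox transcription factor, and Slc4a5 and Kl, which, of the 9 genes other than Ttr, had the lowest and the highest share of their level not tied to choroid plexus markers in 1 of the fits described below, the line on Tmem72 and Kcne2 with relative weights. RefSeq start sites on GRCm38.p6 were matched for 6 of the members that could be printed, with 11 windows of 300 bases in all, some of them overlapping. Each run gives the 250 bases before a start site, 5′ to 3′ on the gene's strand. The Otx2 run is chr14:48665110-48665359 on the minus strand, the Slc4a5 run chr6:83237125-83237374 on the plus strand and the Kl run chr5:150952357-150952606 on the plus strand. The Otx2 and Slc4a5 runs lie inside the spans of their genes in the deposited tables, so their start sites are inner ones. Capitals mark GGATTA, the reverse complement of TAATCC, the core that homeodomain proteins of the Otx class are known to bind.
Otx2: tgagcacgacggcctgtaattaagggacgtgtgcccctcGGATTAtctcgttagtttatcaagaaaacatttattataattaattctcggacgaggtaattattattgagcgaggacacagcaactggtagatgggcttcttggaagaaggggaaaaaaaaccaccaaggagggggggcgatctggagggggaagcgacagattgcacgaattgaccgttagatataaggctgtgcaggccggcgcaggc
Slc4a5: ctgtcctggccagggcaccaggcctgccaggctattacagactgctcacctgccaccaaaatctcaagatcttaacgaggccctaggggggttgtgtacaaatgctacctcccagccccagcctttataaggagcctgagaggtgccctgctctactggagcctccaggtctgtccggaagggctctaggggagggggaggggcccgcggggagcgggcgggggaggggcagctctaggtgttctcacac
Kl: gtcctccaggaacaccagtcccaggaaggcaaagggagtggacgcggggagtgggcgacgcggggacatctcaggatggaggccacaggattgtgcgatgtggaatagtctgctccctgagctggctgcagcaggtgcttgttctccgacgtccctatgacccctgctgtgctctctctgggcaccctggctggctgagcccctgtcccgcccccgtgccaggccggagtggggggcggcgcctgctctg
TAATCC was searched on both strands in each 300-base window. It was found in 1 of the 11 windows, the Otx2 window printed here, 211 bases before the start, and in 7.06% of the 32851 windows of all genes. Otx2 had 4 windows, and the printed one is the only one of them with the match. A missing match says only that these letters are not in the window. The Kl window had 67.3% G and C with 19 CpG, and the Slc4a5 window 62.7% with 6 CpG, beside medians of 52.7% and 7 over all windows.

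All 10 genes varied between hippocampi far more than most genes did. As the list was chosen with earlier results of these data known, the comparison with all genes is a description. The fold range, the highest CPM divided by the lowest over the 20 libraries, was at least 25.2-fold for each member. Of the 15515 genes with a mean of at least 1 CPM, 2.38% had a fold range of at least 10 (computed after adding a prior count of 2), and the median gene had a range of 1.88-fold. Together the 10 genes took between 0.0133% and 0.986% of a library's counts.

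Ttr (transthyretin), the carrier of thyroxine and of retinol-binding protein, had the widest range of all genes in that comparison. It lies on chromosome 18. In the 5 control libraries it stood at 15.6, 5632, 2298, 19.5 and 4580 CPM, and in the ICI libraries at 2.15, 616.5, 265.9, 1663 and 2031 CPM. In the melanoma libraries it stood at 378.1, 14.2, 71.5, 3399 and 802.6 CPM, and in the melanoma + ICI libraries at 43.9, 1218, 2921, 5980 and 2019 CPM. Each group thus held at least 1 library with Ttr under 100 CPM (6 of 20 in all) and at least 1 over 1000 CPM (10 of 20), and the groups overlapped. The range was 2788-fold. It rested in part on ICI replicate 1, the library with the lowest value, and was 422-fold without it.

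Enpp2 (autotaxin), the secreted enzyme that makes lysophosphatidic acid, lies at chr15:54838898-54920146. It read 130.2, 2934, 1267, 217.0 and 2022 CPM in the control libraries and 109.9, 561.9, 285.2, 863.4 and 903.7 CPM in the ICI libraries. The melanoma libraries read 296.8, 203.0, 223.6, 1448 and 572.0 CPM, and in the melanoma + ICI libraries 230.8, 663.3, 1982, 3151 and 834.8 CPM. The same libraries were high and low as for Ttr, but the lowest Enpp2 value was still 109.9 CPM, in the library where Ttr was at 2.15 CPM. Its range was 28.7-fold.

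F5 (coagulation factor V), the cofactor of the enzyme complex that activates prothrombin, lies at chr1:164151838-164220277. F5 ranged from 0.554 CPM in control replicate 4 to 100.3 CPM in melanoma + ICI replicate 4, a 181-fold range.

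Among the transporters and channels, Slc4a5, an electrogenic sodium bicarbonate cotransporter at chr6:83219828-83304945, had the widest range. It stood at 0.196, 59.9, 26.02, 0.184 and 41.8 CPM in the control libraries and at 0.172, 7.11, 2.67, 12.6 and 17.9 CPM in the ICI libraries. In the melanoma libraries it stood at 3.91, 0.469, 0.650, 29.8 and 8.29 CPM, and in the melanoma + ICI libraries at 0.329, 14.4, 36.9, 58.4 and 12.9 CPM. Its range was 349-fold. With a prior count of 2, Slc4a5 was the third of those 15515 genes, at 233.7-fold. The lowest value came from 4 counts, with an exact Poisson 95% interval of 0.0468 to 0.439 CPM that covers counting error only.

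Aqp1 (aquaporin 1), the water channel of the epithelium's fluid-facing membrane, lies at chr6:55336432-55348555 and ranged from 0.515 to 54.6 CPM, or 106-fold. Folr1 (folate receptor alpha), which takes folate across the epithelium, lies at chr7:101858331-101870788 and ranged from 0.353 to 30.1 CPM, or 85.3-fold. Both had their low values in the same 6 libraries as Ttr, all of them at or under 1.34 CPM.

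Clic6, a member of the chloride intracellular channel family, lies at chr16:92485736-92541243. It read 3.76, 103.4, 51.99, 5.397 and 79.3 CPM in the control libraries and 0.558, 24.4, 19.3, 36.7 and 44.7 CPM in the ICI libraries. The melanoma libraries read 13.03, 6.02, 13.9, 89.2 and 30.04 CPM, and in the melanoma + ICI libraries 4.84, 30.4, 104.4, 139.8 and 38.2 CPM. Over 19 libraries it thus lay at or above 3.76 CPM, and only ICI replicate 1 was lower. The range of 251-fold became 37.2-fold without that library.

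Kl (klotho), a membrane protein that serves as co-receptor for FGF23 and is also shed, lies at chr5:150952607-150993817. It stood at 9.99, 252.0, 116.1, 12.6 and 161.3 CPM in the control libraries and at 15.4, 54.6, 44.4, 65.7 and 74.1 CPM in the ICI libraries. In the melanoma libraries it stood at 27.6, 20.1, 11, 99.0 and 43.6 CPM, and in the melanoma + ICI libraries at 14.1, 65.3, 115.7, 246.3 and 76.5 CPM. Kl had the smallest range of the 10 genes, 25.2-fold, and never fell under 9.99 CPM.

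Prlr (prolactin receptor) lies at chr15:10177238-10349180 and read 3.76, 67.6, 31.1, 4.20 and 38.2 CPM in the control libraries and 2.62, 14.3, 3.62, 14.99 and 22.1 CPM in the ICI libraries. The melanoma libraries read 5.13, 2.65, 3.34, 23.4 and 10.6 CPM, and in the melanoma + ICI libraries 2.42, 23.0, 23.9, 71.5 and 25.7 CPM. The 6 libraries poorest in Ttr were all at or under 4.20 CPM, as was ICI replicate 3 with 265.9 CPM of Ttr, and the range of Prlr was 29.5-fold.

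Otx2, the transcription factor needed to form the choroid plexus in the embryo, lies at chr14:48657679-48667644. Otx2 stood at 1.10, 22.2, 10.7, 2.44 and 17.6 CPM in the control libraries and at 0.343, 5.87, 5.00, 11.4 and 11.6 CPM in the ICI libraries. In the melanoma libraries it stood at 2.19, 0.939, 2.77, 18.9 and 6.12 CPM, and in the melanoma + ICI libraries at 0.780, 7.13, 17.2, 31.2 and 9.61 CPM. The range of 90.9-fold fell to 40.0-fold without ICI replicate 1, where Otx2 had 8 counts.

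**Figure D1:**
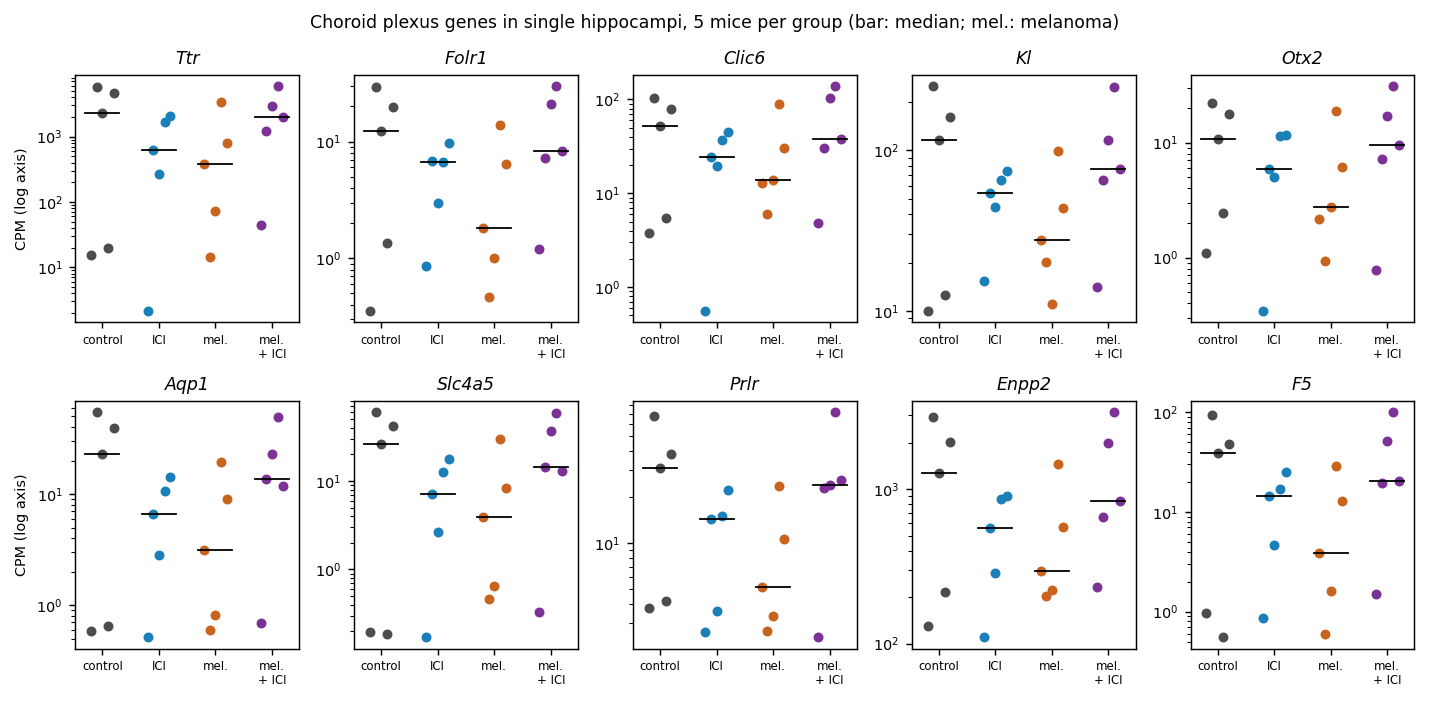
Level of each of the 10 genes in every library, in CPM on a log axis, by group (5 mice each, mel. for melanoma); the bar is the group median. In every panel each group spans low and high libraries, as for Ttr from 2.15 to 2031 CPM within the ICI group.

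On a scale that allows genes to be compared, CPM per kilobase of exon, the mean order was Ttr (1393), Enpp2 (272.1), Clic6 (10.7), Kl (8.18), Aqp1 (5.399), Folr1 (3.95), F5 (3.27), Slc4a5 (2.88), Otx2 (2.73) and Prlr (1.28). Neighbours in this order were not equally apart. Enpp2 lay above Clic6, and Kl above Aqp1, in 20 of 20 libraries. Ttr lay above Enpp2 in 14 of 20, Clic6 above Kl in 15, Aqp1 above Folr1 in 13 and Slc4a5 above Otx2 in 7. F5 lay above Slc4a5 in 16, and Folr1 above F5 and Otx2 above Prlr in 19. In the 6 libraries poorest in Ttr the most abundant member was Enpp2.

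The 10 genes rose and fell together across the 20 mice. Over the 45 pairs of members, Pearson's r of log2 CPM lay between 0.879 (Clic6 with Prlr) and 0.992 (Aqp1 with Slc4a5), with a median of 0.958. Spearman's rho lay between 0.908 and 0.994. Each of the 45 pairs had an adjusted permutation p of 1e-05 for both measures, the smallest that 100000 permutations can give. The list was not chosen blind to these data, so these p-values are a description. Leaving out the 2 libraries farthest from the median of 1 gene of each pair gave r between 0.909 and 0.994. Removing the 4 group means gave r between 0.901 and 0.997. Ttr values formed no separate clusters, with a largest gap of 2.68 between neighbouring libraries in a log2 range of 11.4.

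The values of r were also taken apart for libraries over and under 100 CPM of Ttr. In the 14 libraries with Ttr over 100 CPM, the 45 values of r lay between 0.865 and 0.988. In the 6 libraries with Ttr under 100 CPM they lay between -0.675 and 0.938, with a median of 0.261. In those 6 libraries Aqp1 had at most 19 counts and Slc4a5 at most 15, so the counting error of their values was wide. A split on Ttr, itself a member, narrows the range within each part, which by itself lowers r. These values are thus a description and cannot tell whether the common movement differs along the range.

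**Figure D2:**
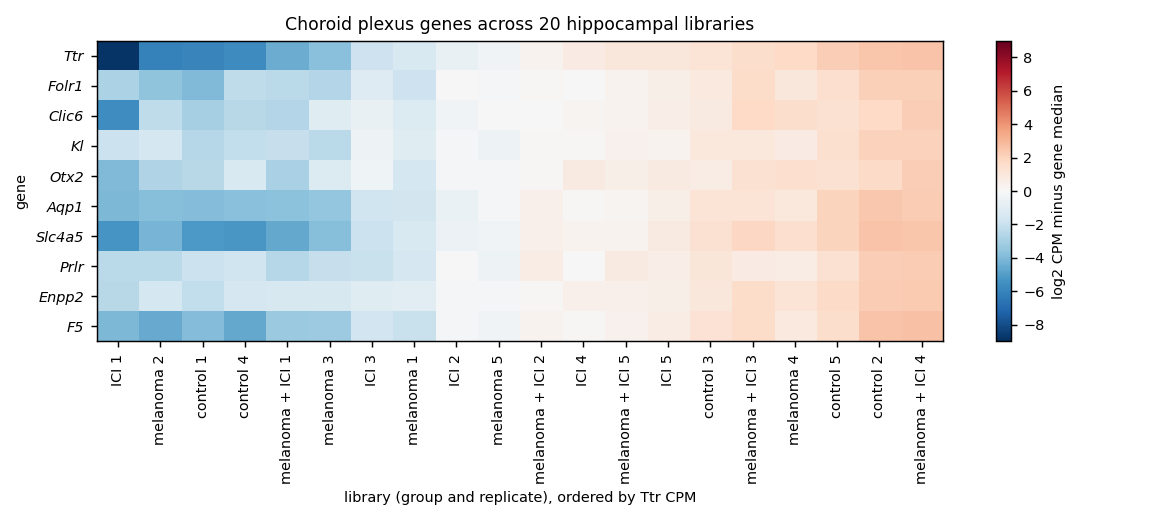
Log2 CPM of each gene minus its median over the 20 libraries (colour), with libraries as columns in order of Ttr and genes as rows. All 10 rows pass from blue to red along the same order, and Clic6 in ICI replicate 1 is darker than its neighbours.

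The genes whose pattern was most like the mean of the 10 were sought among 15465 other genes. The closest 10 were Kcne2 (r = 0.990), 1500015O10Rik (0.988), Tmem72 (0.988), Mfrp (0.984), Cldn2 (0.983), Oca2 (0.980), Wdr86 (0.979), Sostdc1 (0.976), Tmprss11a (0.976) and Trpv4 (0.976), each over the 20 libraries and given as a description. Kcne2 is a potassium channel subunit, Cldn2 a claudin of leaky epithelia and Trpv4 a cation channel. Tmem72 ranged from 0.0858 to 81.9 CPM. In all, 53 genes (0.343%) had r over 0.9, and the lowest r was -0.79. A list of 12 other choroid plexus epithelial genes placed 5 of its genes among these 10. The list's mean log2 CPM followed Ttr (r = 0.959, rho = 0.995, permutation p = 1e-05 for both). Without the 2 farthest libraries r was 0.970.

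Other structures near the choroid plexus followed Ttr less closely. Each r and rho here is that of the mean log2 CPM of a marker list with Ttr, while the ranges are of summed CPM. Summed ependymal markers (Foxj1, Ccdc153 and 8 others), which mark the ciliated lining of the ventricle, ranged from 17.0 to 116.8 CPM. Their mean log2 CPM gave r = 0.433 (permutation p = 0.0571, adjusted p = 0.285) and rho = 0.466 (adjusted p = 0.194). The 6 markers of choroid stroma and fenestrated vessels gave r = 0.366 (permutation p = 0.112; rho = 0.433, p = 0.0583), with sums from 28.0 to 50.9 CPM. For 10 markers of meninges r was 0.259 (permutation p = 0.271; rho = 0.374, p = 0.105). Over 10 marker lists, the list of other epithelial genes was the only one with an adjusted p under 0.05. Without the 2 farthest libraries, r was 0.231 for ependyma, 0.172 for stroma and 0.325 for meninges.

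The next question was which of the genes were also read in libraries poor in choroid plexus transcripts. For each gene a straight line of CPM on CPM of Ttr was fitted over the 20 libraries. The intercept is the level that would remain where Ttr is 0, and it is given as a percentage of the gene's mean level with its standard error (SE). A gene read only with the choroid plexus would have an intercept near 0. Since Ttr has a large spread of its own, a line on the sum of Tmem72 and Kcne2 with weights that treat errors as relative was added after the data were seen. Tmem72 and Kcne2 are themselves among the 3 genes that follow the mean of the 10 members most closely, so this reference is not independent of them, and the order of the genes on it is a description.

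On the added line Ttr had the lowest intercept of the 10 genes, -0.719% ± 0.111 of its mean or -12.2 ± 1.88 CPM, which lies below 0 by several standard errors. Without the weights it was 2.66% ± 3.73, and its log2 slope on Tmem72 and Kcne2 was 1.13 ± 0.048. The other 9 genes ranged from Slc4a5 to Kl. Slc4a5 had an intercept of -0.76% ± 5.96 on Ttr and of 0.011% ± 0.15 on the added line, both within their standard error of 0. With relative weights on Ttr it was 0.816% ± 0.196, above 0 by several standard errors. The intercept of Aqp1 was -0.0378% ± 7.49 on Ttr and 2.77% ± 0.434 on the added line, and that of F5 was -3.08% ± 10.9 and 2.14% ± 0.438. The added line placed both above 0 by several standard errors, at 0.393 and 0.519 CPM, and this went with its weights. Without them, Aqp1 had 1.08% ± 5.57 and F5 -3.3% ± 7.47 on Tmem72 and Kcne2, and with them they had 3.25% ± 0.357 and 2.63% ± 0.443 on Ttr. On a log2 scale Slc4a5 rose with Tmem72 and Kcne2 with a slope of 1.00 ± 0.024, where 1 is proportional, and with Ttr with a slope of 0.854 ± 0.0438.

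Enpp2 and Kl had the highest shares on the added line. Enpp2 kept 15.2% ± 5.76 of its mean on Ttr, or 143.5 ± 54.4 CPM, and 17.7% ± 1.21 on Tmem72 and Kcne2, or 167.3 ± 11.4 CPM. Kl kept 18.1% ± 6.48 on Ttr, or 13.8 CPM, and 19.5% ± 2.61, or 14.9 ± 1.99 CPM, on the other reference. Their log2 slopes were 0.482 ± 0.033 and 0.471 ± 0.037. Observed values in ICI replicate 1, the library lowest in Ttr, were 109.9 CPM for Enpp2 (2562 counts, exact Poisson 95% interval 106 to 114) and 15.4 CPM for Kl (360 counts, 13.9 to 17.1).

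On the added line Folr1 had an intercept of 8.29% ± 1.46, Clic6 of 11.7% ± 2.495, Prlr of 14.1% ± 1.57 and Otx2 of 14.5% ± 3.06. On Ttr the same 4 genes had 11.1% ± 7.34, 18.9% ± 9.05, 12.9% ± 9.29 and 21.5% ± 6.88, so that Otx2 and Clic6 lay above Kl and Enpp2 there. They did so too on Tmem72 and Kcne2 without the weights, at 23.6% and 20.3% beside 18.8% and 15.9%. Prlr in ICI replicate 1 stood at 2.62 CPM, close to its intercept of 2.77 CPM. For Clic6, Otx2 and Enpp2 the line and the poorest library disagreed. The 109.9 CPM of Enpp2 there lay below its intercept, and in the 4 next poorest libraries in Tmem72 and Kcne2 it stood at 217.0, 130.2, 203.0 and 230.8 CPM. Clic6 had an intercept of 4.91 CPM but stood at 0.558 CPM in ICI replicate 1 (13 counts, exact Poisson 95% interval 0.297 to 0.954), and Otx2 had an intercept of 1.34 CPM but stood at 0.343 CPM there (8 counts, 0.148 to 0.676).

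These shares depended on the reference. With the summed 12 other choroid plexus genes in place of Ttr, all 9 intercepts were negative, from -37.5% for F5 to -1.57% for Otx2. That sum did not approach 0, since its lowest value was 28.8 CPM, and Car12, a carbonic anhydrase on the list, never fell under 16.3 CPM. An intercept does not name the cells that make the RNA.

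**Figure D3:**
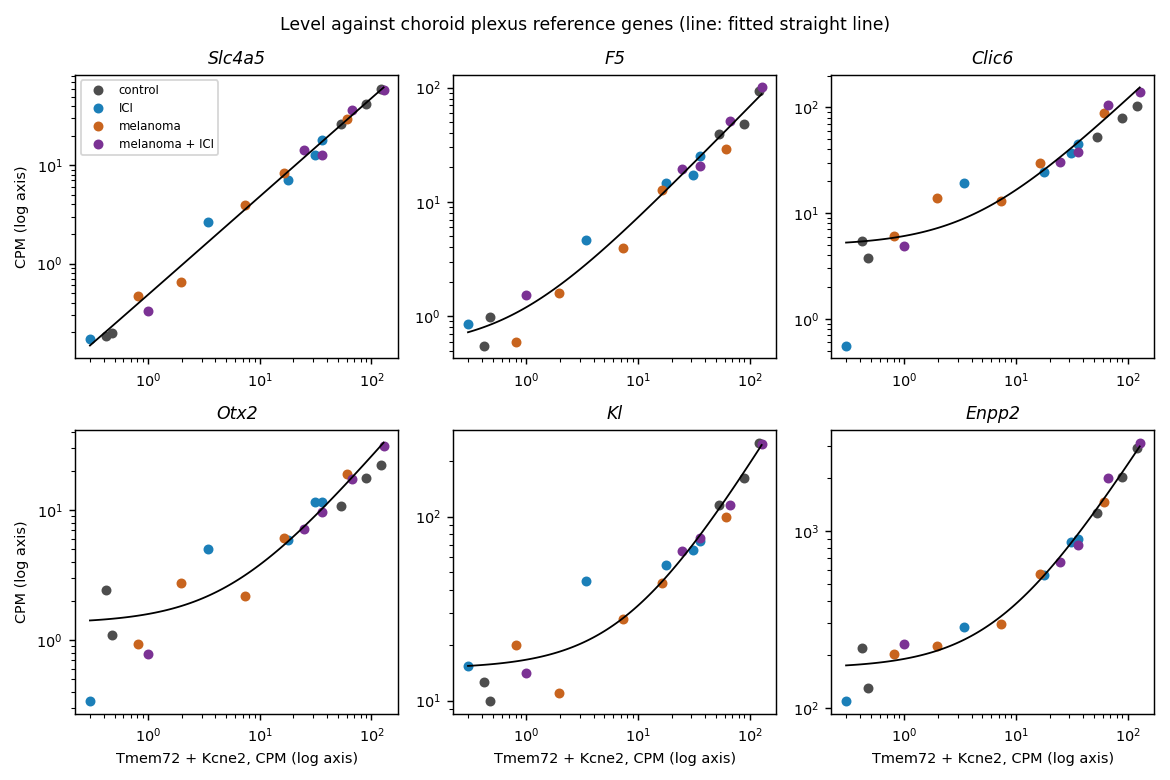
CPM of 6 genes against the summed CPM of Tmem72 and Kcne2 in the 20 libraries, both on log axes, coloured by group; the curve is the straight line fitted with relative weights. Slc4a5 stays on a line through 0, while the curves of Kl and Enpp2 level off at their intercepts of 14.9 and 167.3 CPM. In the 5 libraries poorest in the reference the points scatter around these curves, from 9.99 to 20.1 CPM for Kl and from 109.9 to 230.8 CPM for Enpp2.

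**Figure D4:**
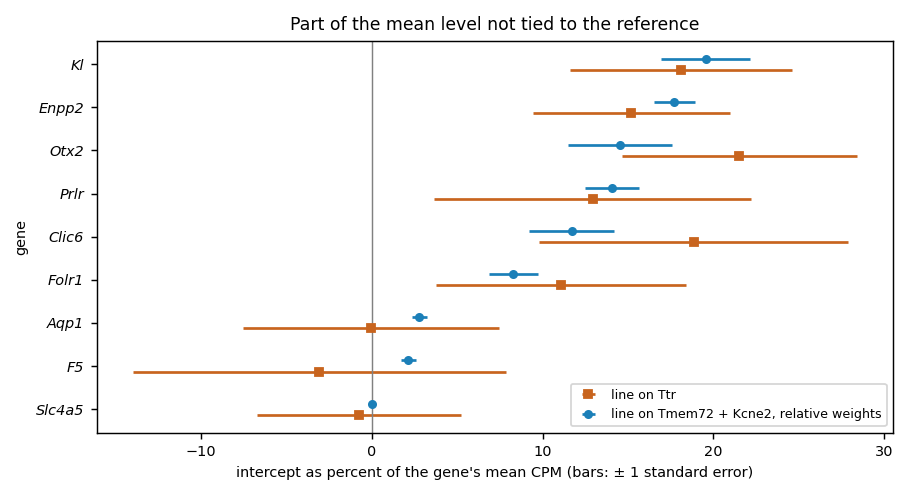
Intercept of the 9 genes other than Ttr as percent of its mean CPM, on Ttr (squares) and on Tmem72 plus Kcne2 with relative weights (circles), with bars of ± 1 SE. On the second reference these 9 genes run from Slc4a5 at 0.011% to Kl at 19.5%.

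What remained around the lines on Tmem72 and Kcne2 was compared between genes as well. The log2 ratio of observed to fitted level had a standard deviation of 0.238 for Enpp2 and 0.844 for Clic6, the smallest and the largest of the 10 genes. In ICI replicate 1 it was -3.24 for Clic6 and -2.05 for Otx2. In 0 of 45 pairs of these remainders did both measures of correlation have an adjusted p under 0.05. Clic6 with Otx2 had the highest correlation, with r = 0.840 (adjusted permutation p = 0.0009), but rho was 0.657 with an adjusted p of 0.0977. Without the 2 farthest libraries its r was 0.582.

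Remainders were also set against the mean log2 CPM of the markers of 9 other cell types or regions. Of these 90 relations, 0 had an adjusted p under 0.05. The closest was Enpp2 with oligodendrocyte markers such as Mbp and Mog, with r = 0.687 (permutation p = 0.00062, adjusted p = 0.0558) and rho = 0.653 (adjusted p = 0.195). Its r was 0.640 without the 2 farthest libraries. Enpp2 is known to be made by cells of the oligodendrocyte lineage as well as by choroid plexus. The Kl remainder had its closest relation with hippocampal neuron markers (r = 0.603, permutation p = 0.00789, adjusted p = 0.272; rho = 0.540, adjusted p = 0.416). Kl is known to be expressed in neurons too.

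No difference between the 4 groups passed the test for any of the 10 genes. In edgeR's quasi-likelihood test, 0 of the 10 genes had an adjusted p under 0.05 in each of 6 contrasts, where 0% of the 18427 genes tested did. At an unadjusted p under 0.05, 0 of the 10 passed in the 5 contrasts between a pair of groups. The share of all genes at that threshold was 5.23% for ICI against control, 5.11% for melanoma against control and 2.38% for melanoma + ICI against control. It was 5.5% for melanoma + ICI against melanoma and 8.63% for melanoma + ICI against ICI. In these 5 contrasts the values of the groups overlapped for all 10 genes, while they did not overlap for 0.885%, 1.04%, 0.304%, 1.54% and 1.45% of all genes, in the same order. DESeq2 and limma voom also called 0 of the 10 after adjustment in each of the 6 contrasts, and at most 47 and 25 of the 18427 genes. The unadjusted counts depended on melanoma replicate 4, the melanoma library richest in Ttr: without it, 7 of 10 genes passed for melanoma against control and 6 of 10 for melanoma + ICI against melanoma. Of the 18623 genes tested in that fit, 1085 and 1086 passed. The first 3 contrasts share the control mice, and other pairs of contrasts share a group in the same way.

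Ttr averaged 2509 ± 2574 CPM in control and 915.7 ± 887.2 CPM in ICI libraries (mean ± SD, n = 5 each). In melanoma libraries its mean was 933.0 ± 1413 CPM, and with ICI added it was 2436 ± 2246 CPM. The log2 fold change of Ttr was -1.45 (SE 1.49, adjusted p = 0.800) for ICI and -1.43 (SE 1.49, adjusted p = 0.877) for melanoma against control. For melanoma + ICI it was -0.04 against control (SE 1.46, adjusted p = 1), 1.39 against melanoma (SE 1.49, adjusted p = 0.842) and 1.41 against ICI (SE 1.49, adjusted p = 0.750). Each of these differences was smaller than its standard error. With 1 library left out, Ttr ranged from -1.98 (without ICI replicate 5) to -0.92 (without control replicate 2) for ICI against control, and from -3.00 (without melanoma replicate 4) to -0.89 (without control replicate 2) for melanoma against control. For melanoma + ICI it ranged from 0.73 (without its replicate 4) to 2.94 (without melanoma replicate 4) against melanoma, and from 0.76 (without its replicate 4) to 1.93 (without ICI replicate 5) against ICI. Between-group differences took 6.89% of the variance of log2 Ttr, beside a median of 14.5% over all genes tested.

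Prlr had the largest share of its variance between groups, 16.8%, and the smallest p of the 10 in 4 of the 6 contrasts. Its means were 29.0 ± 26.6 CPM in control and 11.5 ± 8.26 CPM in ICI libraries (SD, n = 5 each), and 9.02 ± 8.63 CPM in melanoma libraries and 29.3 ± 25.4 CPM with ICI added. The log2 fold change of Prlr was -1.33 for ICI against control (SE 0.83, adjusted p = 0.766), -1.68 for melanoma against control (SE 0.84, adjusted p = 0.877) and 1.70 for melanoma + ICI against melanoma (SE 0.84, adjusted p = 0.825). In the remaining contrasts between a pair of groups, Clic6 had the smallest p against control (0.38, SE 0.94, adjusted p = 1) and Enpp2 against ICI (1.33, SE 0.81, adjusted p = 0.613), both for melanoma + ICI. With 1 library left out, Prlr reached -0.75 for ICI and -1.10 for melanoma against control (each without control replicate 2) and -2.43 for melanoma against control without melanoma replicate 4. In melanoma + ICI against melanoma it ranged from 1.05 without melanoma + ICI replicate 4 to 2.43 without melanoma replicate 4. Enpp2 against ICI fell to 0.77 without melanoma + ICI replicate 4.

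Markers of neighbouring tissue also differed between these groups at an unadjusted p under 0.05, with none past the adjusted threshold (edgeR). All 8 striatal markers (Drd1, Drd2 and others) were higher in melanoma than in control, with a median log2 difference of 2.11. Of all genes, 2.7% were higher there at that threshold. In melanoma + ICI against melanoma 3 of 8 were lower, beside 2.87% of all genes. Of 10 hippocampal neuron markers, 5 were lower in melanoma + ICI than in control and 6 lower than in ICI, with medians of -0.71 in both. The shares of all genes lower there were 1.28% and 4.51%. Of 10 markers of meninges, 6 were higher in melanoma + ICI than in ICI, with a median of 0.93 and all 10 positive, in the direction of the Ttr and Enpp2 values of that contrast. Against melanoma 1 of the 10 passed, with a median of 0.67 and again all 10 positive. The shares of all genes higher at that threshold were 4.12% against ICI and 2.63% against melanoma. Of 8 endothelial markers, 2 were higher in melanoma + ICI than in ICI, and for the stromal and fenestrated vessel list 1 of 6 was. In ICI against control, 2 of 8 endothelial, 1 of 10 meningeal, 1 of 6 stromal and 1 of 5 red blood cell markers were lower. Of these lists 0 markers were higher at that threshold, and 3.15% of all genes were lower. In melanoma against control, 2 endothelial markers and 1 stromal marker were lower and 1 endothelial marker higher, beside 2.41% and 2.7% of all genes. The part of these tissues in the fold changes of the 10 genes was not tested.

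The interaction subtracts the log2 effect of ICI without a tumour from its effect in mice with tumours. It was 2.84 for Ttr (SE 2.10, adjusted p = 0.552) and 3.03 for Prlr (SE 1.19, adjusted p = 0.484). With 1 library left out, it ranged from 2.19 to 4.40 for Ttr and from 2.39 to 3.765 for Prlr. With voom it was 5.695 for Ttr and 3.69 for Prlr. At an unadjusted p under 0.05, Kl, Aqp1, Prlr, Enpp2 and F5 passed, 5 of 10 and all positive, where 10.3% of all genes passed and 5.99% were positive. Since the 10 genes move together, this is not 5 separate observations. The count ranged from 0 without control replicate 2 or melanoma + ICI replicate 4 to 9 without melanoma replicate 4. In these fits 2908 of 18615, 1797 of 18599 and 1745 of 18623 genes passed, in the same order. The median log2 value over the 10 was 2.80, and 2.48 over the 12 other choroid plexus genes, beside 0.02 over all genes tested. Of 10 markers of meninges 6 passed at the same unadjusted threshold, with a median of 1.16, none passed after adjustment, and no marker was at 0 in any library. Their summed level was 116.3 to 355.0 CPM in control libraries, 68.0 to 283.7 CPM with ICI, 87.8 to 293.2 CPM with melanoma and 163.0 to 516.1 CPM with both. Of 6 stromal and fenestrated vessel markers 2 passed. Of 8 endothelial markers 2 passed, both higher, and 5 of the 8 were positive. Red blood cell markers were positive in 5 of 5, with a median of 0.977, and 0 passed. The part of these tissues in the interaction was not tested.

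When the summed level of the 12 other choroid plexus genes entered the fit as a covariate, 0 of the 10 genes passed at an unadjusted p under 0.05 in the interaction, where 28.5% of all genes did. Ttr then had an interaction of -1.59 (edgeR, SE 0.93, adjusted p = 0.266), and Prlr of 0.56 (SE 0.37, adjusted p = 0.327). With this covariate, the standard error of Prlr for ICI against control was 0.25 in place of 0.83. The 12 genes move with the 10 and had a median interaction of 2.48 themselves. The covariate therefore takes out the common movement whatever its source, and the fit cannot tell that source.

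**Figure D5:**
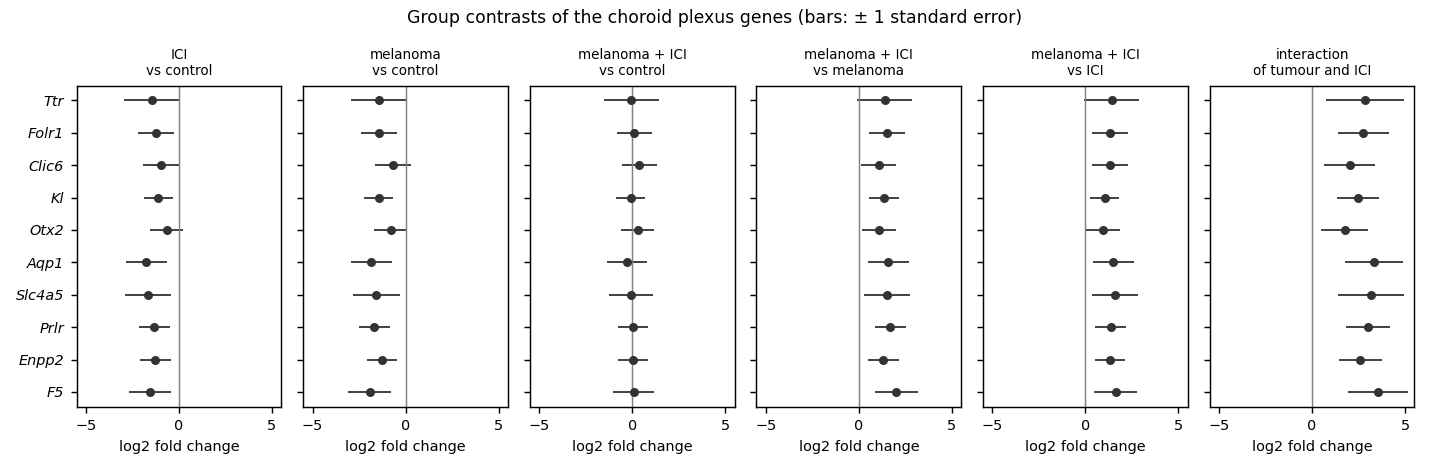
Log2 fold change of each gene in 5 contrasts between a pair of groups and in the interaction, with bars of ± 1 SE from edgeR. The values run from -1.75 (Aqp1) to -0.66 (Otx2) for ICI against control and from -1.93 (F5) to -0.68 (Clic6) for melanoma against control, and for melanoma + ICI against control 6 of 10 are positive. That count was 0 without melanoma + ICI replicate 4 and 10 without control replicate 2. Whether the genes differ from each other within a contrast was not tested.

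Partner genes of each member were described from lists by pathway. Of their genes, 0 had an adjusted p under 0.05 in the 6 contrasts (edgeR). In the interaction, where 10.3% of all genes passed an unadjusted p under 0.05, 4 of 15 genes of ion and water transport did, with Aqp1 among them, and 3 of 7 of coagulation, with F5 among them. So did 2 of 10 genes of the lysophosphatidic acid list, Enpp2 and Plpp1, and 2 of 7 of the klotho and FGF list, 1 of the latter lower and Kl higher. In the thyroxine and retinol (10 genes), folate (8), prolactin (8) and roof plate (9) lists, 1 gene each passed, and in the prolactin list this was Prlr itself. Of 64 partners that passed the filter on low counts and were set against the mean log2 CPM of the 10 genes, 22 had r over 0.5 and 1 had r under -0.5, over 20 libraries and as a description. Kcnj13, Kcne2 and Car12 are among the 22 and also on the list of other choroid plexus epithelial genes. Of the 18417 genes tested that are no members, 6.73% had r over 0.5 and 6.03% had r under -0.5.

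Among thyroxine and retinol genes, the partners of Ttr, 4 of 9 had r over 0.5. Among them were the thyroid hormone transporter Slco1c1 (0.827, 39.7 to 98.9 CPM) and the retinol-binding protein receptor Stra6 (0.775). The thyroid hormone receptor Thra had r = -0.510 at 638.1 to 1081 CPM. The deiodinase Dio2, known from astrocytes, had r = 0.0184.

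Among genes of ion and water transport into the cerebrospinal fluid, 8 of 12 partners of Slc4a5, Aqp1 and Clic6 had r over 0.5. The potassium channel Kcnj13 (0.971, 0.369 to 46.3 CPM) had the second highest r of the list, after Kcne2. The anion exchanger Slc4a2 had 0.896 and the carbonic anhydrases Car14 and Car12 had 0.859 and 0.832. The sodium pump subunit Atp1b1, abundant in neurons, had -0.313. Kcnj13, Kcne2 and Car12, all counted in the 8, are also on the list of other choroid plexus epithelial genes. Their high r comes with that choice and is no separate observation.

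In the folate list, 4 of 7 partners of Folr1 had r over 0.5. Folr2, a folate receptor known from macrophages, had 0.772 at no more than 1.07 CPM. The proton-coupled folate transporter Slc46a1 had 0.605 over a narrow range of 15.2 to 21.8 CPM, and the reduced folate carrier Slc19a1 had 0.583.

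For Kl, 1 of 6 partners had r over 0.5, the receptor Fgfr2 (0.633), while Fgfr1 had 0.296 and the ligand gene Fgf23 never exceeded 0.756 CPM. For Prlr, 2 of 7 had r over 0.5, the signal transducer Stat5a (0.767, 1.501 to 3.65 CPM) and its target Cish (0.624). Prl itself was too low to test, at no more than 0.489 CPM.

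For Enpp2, 0 of 9 lysophosphatidic acid receptors and phosphatases had r over 0.5, and the highest was Plpp2 (0.419). For F5, 0 of 6 coagulation genes had, and F2, the gene of prothrombin, never exceeded 0.172 CPM. Of the roof plate genes listed with Otx2, 3 of 8 had r over 0.5, the transcription factors Lmx1a (0.965) and Msx1 (0.925) and the growth factor Gdf7 (0.644). Rspo3 had r = -0.472.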

How the data were processed

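Bulk RNA sequencing of 20 hippocampi, 5 mice per group, was deposited as 1 table of raw counts per gene and library. Per the submitters' processing notes, STAR 2.5.2b and DESeq2 1.16.1 were used, with no role given. The counting program, build, annotation, strandedness and treatment of reads with several matches are not given in the sources used here. Coordinates are those of the deposited tables. Of 49671 identifiers, 49412 occur in GENCODE M21 (GRCm38) and 45214 have the same ends there, and symbols came from it. Without stated strandedness, reads of a gene and an antisense partner cannot be told apart, which concerns Ttr and F5 (overlapping antisense genes with 0.03% and 0.16% of their counts). No line named no gene.

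Groups and replicate numbers came from the titles. Library pairs within a group differed beyond sampling noise. Genes were kept by edgeR's filterByExpr (minimum count 10, total 15), which left 18427, and TMM factors were 0.9555 to 1.0432. The quasi-likelihood test of edgeR 4.0.16 in R 4.3.3 was fitted to all 20 libraries with 4 group means (16 residual degrees of freedom), with Benjamini-Hochberg adjustment over all genes and a threshold of 0.05. It was tested on simulated data. Log2 CPM per library used a prior count of 2. Correlations used 100000 permutations, two-sided. Alternatives were DESeq2 1.42.0, voom from limma 3.58.1 with quality weights, RLE size factors, all genes unfiltered, fits of the compared groups alone, a replicate block, a choroid plexus covariate, unscaled totals, a prior count of 0.5, another reference, and each library left out.

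The 10 genes and all lists were chosen with earlier results of these data known. Every member is named. Fold changes are given for Ttr and for the member with the smallest p per contrast, and the 10 most similar genes by r. Pathway genes named beside the counts, and pairs of remainders, were picked after their values were seen. Some genes of the lists are not reported here by name.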

Additional observations from a re-analysis of the deposited data

Results flagged for a closer look

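In each of 40 sets of 5 libraries (10 genes in 4 groups), the gap of the lowest or highest library to its neighbour was set against the whole range of log2 CPM, and 2 sets held a library that stood apart. Chance marks about 1 set in 20. Both were the lowest library of the ICI group, replicate 1. For Clic6 the gap was 0.803 of the range, at 0.558 CPM beside 19.3 CPM in the next library. For Otx2 it was 0.749 of the range, at 0.343 CPM beside 5.00 CPM. The same library held the lowest Ttr of all 20, at 2.15 CPM beside 265.9 CPM in the next ICI library.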

How the results depend on the processing

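No alternative brought any of the 10 genes past the adjusted threshold in any of the 6 contrasts, with 0 called in each of the 20 fits without 1 library. For the interaction, DESeq2 had 6 of 10 at an unadjusted p under 0.05 (smallest adjusted p 0.357), voom 8 (0.185), no filter 1, the choroid plexus covariate 0 and fits without 1 library 0 to 9. Of all genes, DESeq2 had 2048, voom 2340 and the covariate 5256 of 18427 there, and no filter 2650 of 35059. After adjustment DESeq2 called 47 genes and voom 19 in the interaction. Between pairs of groups, voom had 2 for melanoma against control, 3 for melanoma + ICI against melanoma and 1 against ICI, and DESeq2 had 1 in each of the former 2 contrasts. Of 18427 genes, voom had 1285, 2746 and 2165 there and DESeq2 1001 and 1124, in the same order. Whether the replicate numbers pair the mice was not tested. Of 30 same-numbered pairs, 10 had a correlation of deviations over 0.1. The mean correlation was 0.0317 for the same number and -0.00678 for other numbers, and 8 of 20 libraries correlated best with their own number. The replicate block left 0 genes called and 2 of the 10 at an unadjusted p under 0.05 in the interaction and 1 in melanoma against control. Of 18427 genes, 1728 and 901 passed that threshold with the block, in the same order. For melanoma against control and melanoma + ICI against melanoma, Ttr had -0.60 and 0.39 with the block and -2.52 and 3.15 with voom. Ttr changed sign in melanoma + ICI against control with voom (0.63) and, without 1 library, over a range of -0.70 to 0.48. Clic6 there ranged from -0.14 to 0.84. With the covariate, Ttr had 1.23 for ICI, 1.26 for melanoma and 0.90 for melanoma + ICI against control, -0.36 against melanoma, -0.33 against ICI and an interaction of -1.59. With 12 summed genes as reference, the median share not tied to the reference was -15.9%, and Folr1 (-16.8%), Prlr (-15.9%), Enpp2 (-11.1%), Kl (-8.17%), Clic6 (-5.47%) and Otx2 (-1.57%) turned negative. That sum holds genes that stay above 0 in the poorest libraries. The median share was 10.5% to 18.98% without 1 library, the median r 0.953 to 0.964 and the median fold range 62.7 to 98.4. Low counts limited Slc4a5, Otx2, Aqp1, Folr1 and F5 in the 6 libraries poorest in Ttr.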
